A study of Saccharomyces cerevisiae with 42 samples.

Results

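The 24 libraries of Saccharomyces cerevisiae BY4742 at 0 h fell into 7 with a flat and 17 with a steep relation between annotated gene length and read count. The transcripts that differ between these sets are described here. The sets were chosen by a measured value and are not conditions of the study. For each library, the slope of log2 CPM (gene counts per 1000000 counts of the library) on log2 gene length was taken over 4479 nuclear protein-coding genes that have 1 exon, encode no cytosolic ribosomal protein (RP) and have at least 75 counts in all 42 libraries of the series. Length is that of the annotated gene, and base content below is that of its annotated exons. For the coding sequences printed below, both leave out the untranslated ends of the transcript. Libraries with a slope under 0.28 are called flat and the others steep. The flat libraries at 0 h are replicates 5, 8, 12, 16, 17, 19 and 21. Their slopes ran from -0.0795 to 0.116 with a median of 0.0588, and those of the steep libraries from 0.380 to 0.544 with a median of 0.457. Just inside the limit was replicate 21 at 0.116 and just outside it replicate 11 at 0.380, and no other gap between neighbouring libraries at 0 h exceeded 0.0705. The rule used every flat and steep level of these genes, so the differences in level below are a description and carry no test.

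The study followed RNA levels and splicing in growing yeast by stranded polyA-selected RNA sequencing, with 24 libraries at 0 h and 6 each at 2, 4 and 6 h. By their labels all were wild-type BY4742 in YPD, a rich medium, at 30 °C, and both sets at 0 h share this strain, medium, temperature and harvest, about 2 h after dilution of a preculture. The labels number the libraries as biological replicates and name no batch of library preparation. The headers of the count files carry another word than 30C for 18 of the 24 libraries at 0 h. These words could name a temperature or a salt treatment, and what they stand for is not given in the sources used here; the 7 flat libraries were spread over all 4 words, 3 of 6 with 10C, 2 of 6 with 35C, 1 of 6 with 30C and 1 of 6 with Na200. Total gene counts ran from 12998987 to 28221337 in the flat libraries (median 17929319) and from 5382002 to 23496347 in the steep ones (median 11448682). The sets overlapped in depth, yet the flat mean was higher by 8140645 counts (two-sided exact permutation test over 346104 splits, 7 against 17 libraries, p = 0.00184), and the part of depth in the results below was not tested. The steep replicate 13, with 23496347 counts and a slope of 0.535, had more counts than 5 of the 7 flat libraries. No pair of the 276 pairs of libraries at 0 h was alike within sampling noise. The strain name was checked against mating-type genes and marker loci. BY4742 is a haploid of mating type alpha. The pheromone gene MF(ALPHA)1 had a median of 1279 CPM and the a-factor gene MFA1 0.858 CPM. These levels go with the strain name and differ from the MATa mating type that the methods give for the strain. LEU2, with 0 counts, and URA3, with at most 1 count in a library, are deleted in the genotype given there. LYS2, which that genotype does not list, also had at most 1 count in a library. HIS3, which it does list as mutated, had a median of 67.1 CPM. MET17, given there as deleted under its name MET15, had a median of 213 CPM.

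Yeast messenger RNAs carry a tail of adenosines, and polyA selection holds RNA by that tail on oligo-dT beads before the RNA is broken into pieces. A long transcript then yields more fragments than a short one present in as many copies. The slope measured here also holds how the level of transcripts goes with length, and these parts were not separated. Box C/D and H/ACA small nucleolar RNAs (snoRNAs), spliceosomal RNAs and the RNAs of RNase P, RNase MRP and the signal recognition particle (SRP) are trimmed at their 3′ ends and carry no stable tail, and unspliced precursors are short-lived nuclear molecules. These classes therefore reach such libraries only in part.

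Annotated length alone did not place the shortest genes. Printed here are 4 short coding sequences, singled out after their values were seen, that lay on opposite sides of the difference, to show their base content, with every T in capitals, from the RefSeq R64 genome (5′ to 3′, all on the minus strand). PMP1 lies on chromosome III from 162945 to 163067, PMP2 on chromosome V from 122798 to 122929, RPL41B on chromosome IV from 221724 to 221801 and LSM3 on chromosome XII from 1013909 to 1014178, each a single exon.
PMP1: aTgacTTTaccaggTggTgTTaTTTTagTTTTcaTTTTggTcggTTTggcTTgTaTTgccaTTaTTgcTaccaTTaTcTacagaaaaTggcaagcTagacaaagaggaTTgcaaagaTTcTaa
PMP2: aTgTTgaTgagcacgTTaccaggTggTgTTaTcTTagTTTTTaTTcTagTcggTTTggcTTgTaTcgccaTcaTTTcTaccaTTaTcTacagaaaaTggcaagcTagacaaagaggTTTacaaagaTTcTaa
RPL41B: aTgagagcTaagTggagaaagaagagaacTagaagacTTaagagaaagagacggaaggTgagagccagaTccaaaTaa
LSM3: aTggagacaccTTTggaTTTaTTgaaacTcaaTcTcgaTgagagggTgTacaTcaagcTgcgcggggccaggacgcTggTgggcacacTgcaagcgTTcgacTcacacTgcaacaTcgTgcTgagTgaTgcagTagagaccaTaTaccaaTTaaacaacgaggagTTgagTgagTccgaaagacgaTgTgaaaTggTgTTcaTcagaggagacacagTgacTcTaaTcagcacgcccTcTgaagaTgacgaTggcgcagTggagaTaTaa
T made up 36.6% of PMP1 and 34.8% of PMP2, which encode small proteolipids of the plasma membrane proton pump, against 11.5% of RPL41B, a lysine- and arginine-rich protein of the large ribosomal subunit, and 20.7% of LSM3, a subunit of the Lsm rings. Both of the first pair were lower and both of the second pair higher in the flat libraries.

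Across genes, the flat libraries held more of the transcripts of short genes and less of those of long genes. Of 4789 genes with at least 75 counts in all 42 libraries, out of 7127 annotated, 432 (9.02%) lay higher in all 7 flat than in all 17 steep libraries and 993 (20.7%) lower. A difference of at least 2-fold was found for 51 genes (1.06%) in the higher and for 8.69% in the lower direction, as log2 differences from the edgeR fit scaled to library totals. CPM are shares of a library, so that less of 1 transcript and more of the others cannot be told apart, nor can fewer cells that hold a transcript and less of it per cell. The median log2 difference (flat minus steep) over all 4789 genes was -0.20, and it was -0.01 with TMM, which scales libraries to a trimmed mean of gene ratios, a shift of -0.19. With TMM, 712 genes were higher and 715 lower without overlap, and 152 were higher and 212 lower by at least 2-fold, so that the split between the directions rests on the scaling. Without replicate 21, 536 genes were higher and 1336 lower without overlap.

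By annotated length, the share of genes on either side turned over between 500 and 2000 bp. Under 500 bp, 397 genes were tested, with 127 higher and 4 lower without overlap and a median log2 difference of 0.44. From 500 to under 1000 bp, 236 of 1208 were higher and 11 lower (median 0.18). From 1000 to under 2000 bp, 66 of 1949 were higher and 215 lower (median -0.22, and -0.03 with TMM). From 2000 to under 3000 bp, 1 of 767 was higher and 377 lower (median -0.64), and at 3000 bp or more 2 of 468 were higher and 386 lower (median -0.98). Since the slope itself chose the sets, this order was fixed by the choice, and the exceptions to it are what the rule did not fix. The exceptions among long genes were PPN1, a polyphosphatase (log2 difference 0.59), AIP5 (0.40) and RQC2 (1.14), which builds the carboxy-terminal tails on stalled nascent chains. The 4 exceptions under 500 bp were SNA2 (-1.71), a small membrane protein, YEL045C (-0.92) and the snoRNAs snR34 (-1.55) and snR83 (-1.35). In the libraries as a whole, genes of 3000 bp or more took between 5.45% and 7.84% of the counts in the flat and between 11.2% and 13.9% in the steep set, and genes under 500 bp between 9.34% and 10.7% against between 6.11% and 7.50%. Neither pair of ranges overlapped.

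**Figure D1:**
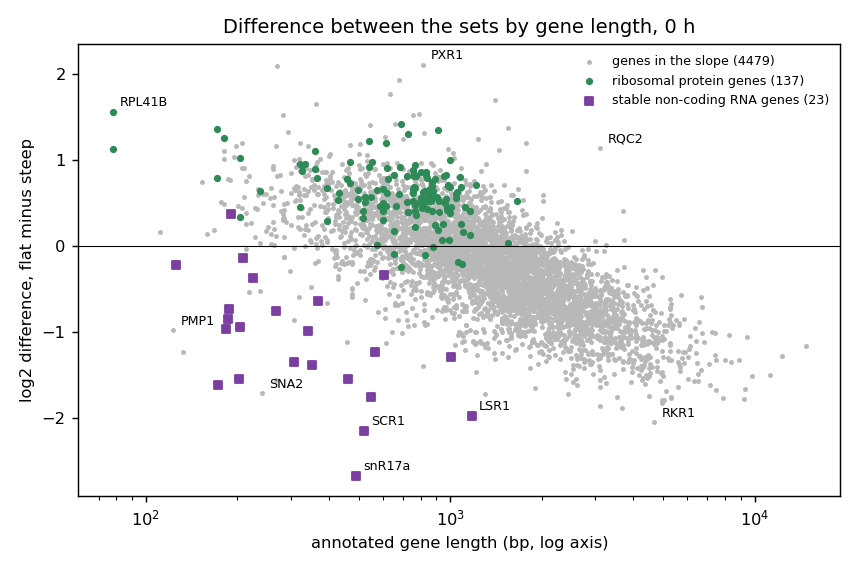
Log2 difference between the 7 flat and 17 steep libraries at 0 h (y axis) against annotated gene length in bp (x axis, log scale). Grey points are the 4479 genes in the slope, green points the 137 RP genes and purple squares the 23 stable non-coding RNA genes. The grey cloud falls with length, the RP genes lie mostly above 0 (131 of 137), and 22 of the 23 stable non-coding RNA genes lie below 0 although most of them are short.

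The largest positive differences in the slope were those of PXR1 and LSM3. PXR1 (YGR280C, chromosome VII, 1050910 to 1051725, minus strand), a nucleolar protein of ribosomal and snoRNA processing, had between 439 and 650.3 CPM in the flat libraries with a median of 485, and between 77.1 and 158.5 CPM with a median of 125 in the steep ones. Its log2 difference was 2.11 (standard error 0.12), a 4.32-fold higher level. LSM3 (YLR438C-A) had between 106.4 and 174 CPM in the flat set (median 126) and between 20.2 and 39.6 CPM in the steep set (median 30.99), a log2 difference of 2.09 (standard error 0.13). The lowest flat library stood more than 2-fold above the highest steep one for both genes. The other 8 of the 10 largest were NOP6, TMA23, CGR1 and RRP15, which act in pre-ribosomal RNA processing, CRP1, a DNA-binding protein of cruciform structures, MRP20 of the mitochondrial ribosome, LSM5, another Lsm ring subunit, and YOR131C, with log2 differences between 1.41 and 1.93. They were between 282 and 1398 bp long, so that the largest differences were not confined to the shortest genes.

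The 10 largest negative differences in the slope were those of large proteins. RKR1 (YMR247C, chromosome XIII, 763351 to 768039, minus strand), the ubiquitin ligase of ribosome-associated quality control, had between 22.6 and 92.8 CPM in the flat libraries (median 34.2) and between 138 and 218 CPM in the steep ones (median 178), a log2 difference of -2.05 (standard error 0.19). The highest flat library for RKR1 was replicate 21. CHC1, the clathrin heavy chain, had between 96.3 and 178 CPM (median 116) against between 347 and 575 CPM (median 418), a log2 difference of -1.82. The nucleoporins NUP120, NUP188 and NUP192, the ribosome assembly factors UTP10 and URB1, the Ras regulator IRA2, the lipid transfer protein FMP27 and the transporter NFT1 had log2 differences between -1.88 and -1.75. All 10 were at least 3114 bp long, and 9 of them had a GC content under 37.2%. The longest genes of all had smaller differences. TRA1, DYN1 and REA1, between 11235 and 14733 bp, had log2 differences of -1.50, -1.28 and -1.17, which put them 0.03, 0.31 and 0.53 above the line of the difference on length.

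At the other end of the length range, the 3 shortest genes tested did not share a value. RPL41B (78 bp) had between 1154 and 2403 CPM in the flat (median 1438) and between 373 and 817 CPM in the steep libraries (median 512). RPL41A, its near-identical copy of the same length, had a median of 1320 against 629 CPM, and reads shared by both copies were not counted, which makes their levels uncertain. OST4 (111 bp), a subunit of oligosaccharyltransferase, had between 15.3 and 33.3 CPM against between 16.7 and 27.6 CPM. The OST4 ranges overlapped, while those of both RPL41 copies did not. PMP1, at 123 bp, had between 131 and 360.8 CPM in the flat and between 297 and 421.2 CPM in the steep libraries, and PMP2 (132 bp) between 49.8 and 319 CPM against between 204 and 437 CPM. Annotated length alone thus placed RPL41B and PMP1, whose printed sequences differ in T content, on the same side. Their measured log2 differences were 1.56 and -0.98.

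Base content went with the difference beside length. A straight line on log2 length described 51.6% of the variance of the log2 difference across the 4479 genes, with -0.42 per doubling of length, GC content alone 32.8%, and both together 65.9%. With length held, 10 points more of GC percent went with 0.65 more on the log2 scale. After the length line was taken off, Spearman's rho across genes was 0.58 with GC, -0.51 with T and -0.09 with A content. Genes share libraries and composition and are not independent replicates, so these are descriptions. Within the class of 1000 to under 2000 bp the median log2 difference went from -0.78 in 120 genes with a GC content under 36% to 0.08 in the genes with 42% or more, and 18.3% of the former and 3.94% of the latter were lower without overlap, against 0% and 6.02% higher. The same order held in genes under 500 bp, from -0.35 to 0.61, and in genes of 3000 bp or more, from -1.39 to -0.58.

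**Figure D2:**
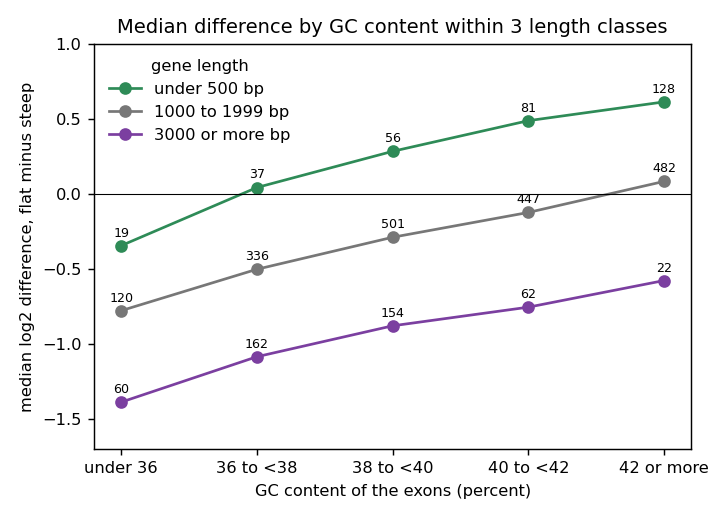
Median log2 difference between flat and steep libraries at 0 h (y axis) in 5 classes of exon GC content (x axis, percent) within 3 classes of gene length (lines); the number at each point is the number of genes. Within each length class the median is higher in each higher GC class, from -1.39 to -0.58 at 3000 bp or more and from -0.35 to 0.61 under 500 bp.

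The genes farthest from the length line were singled out after their values were seen. The 5 lowest residuals among slope genes of at least 10 CPM were those of SNA2, PMP2, YCR024C-B, PMP1 and TOM7, all between 123 and 267 bp, with residuals between -2.52 and -1.87. SNA2 had between 8.22 and 18.5 CPM in the flat libraries (median 11.5) and between 26.5 and 55.4 CPM in the steep ones (median 38.04), and the sets did not overlap. TOM7, a small subunit of the mitochondrial outer membrane translocase, had between 12.4 and 62.8 CPM (median 15.5) against between 33.6 and 59.7 CPM (median 47.6), and here replicate 21 lay above every steep library. T made up between 34.8% and 37.2% of SNA2, PMP2, PMP1 and TOM7 and 46.8% of YCR024C-B, while the GC content of SNA2, at 42.9%, was in the highest of the 5 classes. The 5 highest residuals were those of PXR1, CRP1, RQC2, NOP6 and BRE5, a cofactor of the ubiquitin protease Ubp3, at between 1.70 and 2.05. T made up between 17.5% and 24.9% of these genes, and the GC content of RQC2, at 36.9%, was below the median of slope genes, 39.7%.

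The flat libraries differed among themselves in this second feature. In a fit of log2 CPM on log2 length and GC content in each library, the GC coefficient (log2 CPM per 10 points of GC percent) was 1.98 in replicate 17, 1.97 in 16, 1.99 in 19, 1.64 in 5, 1.33 in 8, 1.21 in 12 and 0.72 in 21. The steep libraries ran from 0.67 to 1.02, so that replicate 21 lay among them and the other 6 flat libraries above all. LSM2, a Lsm ring subunit with a GC content of 34.4%, went with the coefficient in steps, though not in its exact order. It had between 12.5 and 22.85 CPM in replicates 5, 16, 17 and 19, 80.55 and 79.95 in replicates 8 and 12 and 97.3 in replicate 21, against between 62.8 and 101.3 CPM in the steep libraries. PMP2 had between 49.8 and 81.85 CPM in replicates 5, 16, 17 and 19, 187 and 192 in replicates 8 and 12 and 319 in replicate 21. Some long genes, such as RKR1, were also highest in replicate 21, while DYN1 was not. RKR1 had between 22.6 and 34.2 CPM in replicates 5, 16, 17 and 19, 37.9 and 59.4 in replicates 8 and 12 and 92.8 in replicate 21. DYN1 had 66.35 CPM in replicate 21 and between 52.5 and 76.4 CPM in the other 6 flat libraries. All flat libraries were below all steep ones for both genes.

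**Figure D3:**
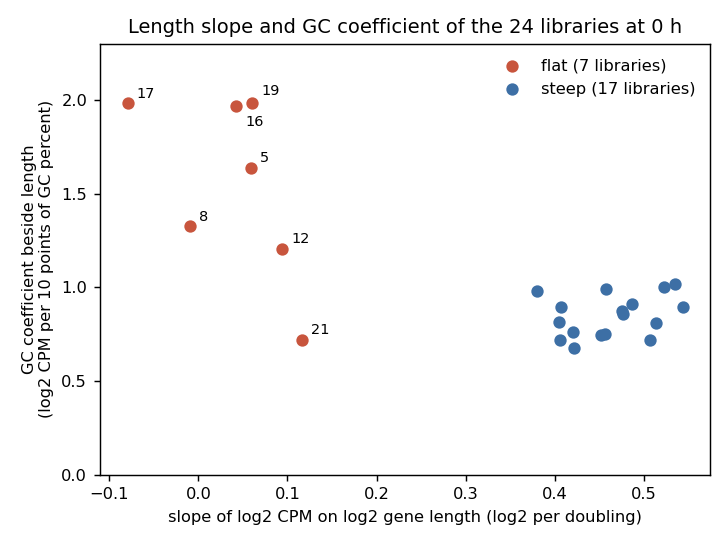
The 24 libraries at 0 h by their slope of log2 CPM on log2 gene length (x axis, log2 per doubling) and their GC coefficient in a fit with length (y axis, log2 CPM per 10 points of GC percent). Red points are flat libraries with their replicate numbers and blue points steep ones; the sets are apart on the x axis by the rule, whereas on the y axis the flat libraries run from 0.72 to 1.99 and replicate 21 lies within the steep range of 0.67 to 1.02.

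RNAs without a stable polyA tail were mostly below 0 in difference, although the ranges of 20 of 23 overlapped. Of 83 annotated snoRNA, spliceosomal, RNase P, RNase MRP and SRP RNA genes, 23 passed the count filter. Of these, 22 (95.7%) had a log2 difference under 0 (20 genes with TMM), against 64.2% of all genes tested. Without overlap, 3 (13%) were lower, against 20.7% of all genes, and 0 higher. At a median length of 306 bp their median was -0.99, against -0.20 over all genes. The 60 that did not pass enter only the sums. All 83 together took between 0.145% and 0.359% of the counts in the flat libraries (median 0.201%) and between 0.270% and 1.33% in the steep ones (median 0.536%), so that the ranges overlapped. From the line of slope genes they lay at a median of -1.81.

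SCR1 (chromosome V, 441987 to 442508, plus strand), the SRP RNA, had 76.2 and 77.9 CPM in the flat replicates 21 and 8, between 140.3 and 156.6 CPM in replicates 12, 16, 17 and 19, and 885 CPM in replicate 5, against between 304 and 3313 CPM with a median of 775 in the steep libraries. The flat replicate 5, at 885 CPM, lay within the steep range, and the other 6 were below all steep libraries. snR17a, the U3 snoRNA of ribosomal RNA cleavage, had between 29.5 and 166 CPM (median 43.7) against between 113 and 957 CPM (median 320), a log2 difference of -2.67 (standard error 0.39). LSR1, the U2 spliceosomal RNA, had medians of 137 and 459 CPM (-1.97), and snR19, the U1 RNA, 106.1 and 212 CPM (-1.23). The RNA of RNase MRP, NME1, had a log2 difference of -0.99 and that of RNase P, RPR1, -0.64. snR8 was the only 1 of the 23 above 0, at 0.37, and snR30, a snoRNA of 606 bp, was at -0.34 with overlapping ranges.

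The 3 without overlap were snR34, snR83 and snR86. snR34, an H/ACA snoRNA, had between 19.0 and 54.9 CPM in the flat libraries (median 41.2) and between 62.1 and 264 CPM in the steep ones (median 103). It is 203 bp long, between 899180 and 899382 on the plus strand of chromosome XII, and is printed as an example of an RNA that ends at its trimmed 3′ end, with the ACA box, 3 bases from the end, in capitals (RefSeq R64).
snR34: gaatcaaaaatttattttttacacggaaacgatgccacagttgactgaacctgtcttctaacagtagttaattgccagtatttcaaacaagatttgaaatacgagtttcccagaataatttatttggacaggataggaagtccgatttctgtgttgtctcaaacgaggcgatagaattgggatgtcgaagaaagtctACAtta
At a GC content of 35.96% it is also poor in GC, whereas SCR1 has 55.0% and lay 3.35 below the fit on length and GC together. Among long non-coding RNAs, ICR1, an RNA over the FLO11 promoter, was lower without overlap, with between 5.46 and 12.2 CPM against between 20.8 and 38.5 CPM. The log2 differences of SRG1 and IRT1 were -0.82 and -0.18, the latter 0.02 with TMM.

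**Figure D4:**
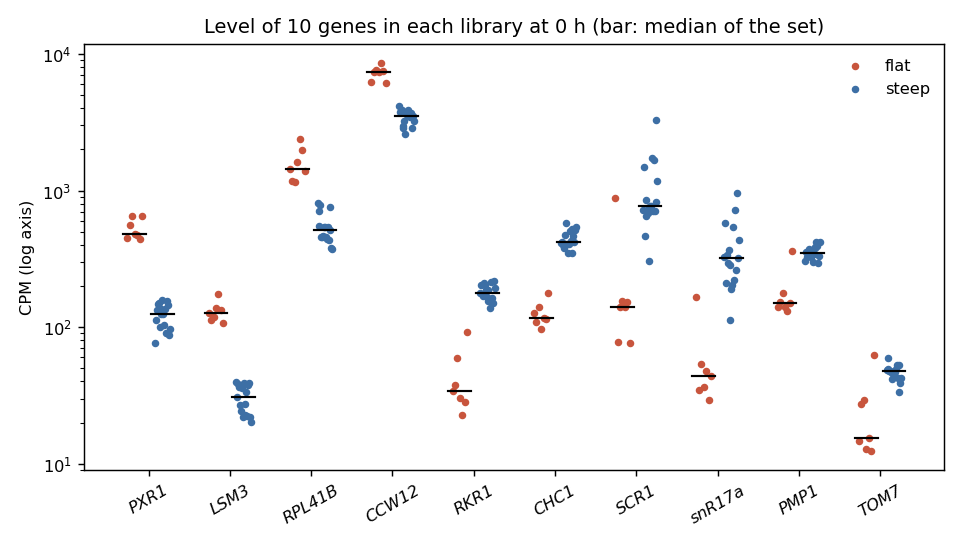
CPM (log axis) of 10 genes in each of the 24 libraries at 0 h; red points are the 7 flat libraries, blue points the 17 steep ones and black bars the medians. PXR1, LSM3, RPL41B and CCW12 lie higher and RKR1 and CHC1 lower in all flat libraries, while 1 flat library lies within or above the steep range for each of SCR1, snR17a, PMP1 and TOM7.

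RP genes were higher in the flat libraries as a class. RP genes were left out of the slope, but they were measured in the same libraries and are mostly short, so this too is a description. Of 137 RP genes, all of them tested, 98 were higher and 0 lower without overlap, against 9.02% and 20.7% of all genes, and 131 had a log2 difference above 0. Their median was 0.60. After the length line was taken off it was 0.26 for those with no intron and 0.56 for those with an intron, whose annotated length includes the intron. With the fit on length and GC content together taken off, these medians were 0.12 and 0.44. RP genes took between 19.1% and 22.5% of the counts in the flat and between 11.5% and 15.6% in the steep libraries, ranges that did not overlap. Beside RPL41B, the largest differences were those of RPL31B, RPS29A, RPL2A and RPS21B, with log2 differences between 1.30 and 1.42. The 50 RP genes with no intron had a median of 0.63 and the 87 with an intron 0.57. The most abundant RP gene, RPL3, had between 6110 and 10312 CPM against between 5134 and 9885 CPM, and its ranges overlapped. Lowest were RPL22B at -0.24, RPS9A at -0.21 and RPS6B at -0.18, the last 0.02 with TMM.

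The medians of 5 groups of small proteins lay above that of all genes. Counts without overlap are to be read against the 9.02% higher and 20.7% lower of all genes. In this and the next 2 paragraphs, members other than MRP20, RRP15, UTP10, HTA1, TIM23, LSM2, RPN1, FBA1, YEF3, TEF1, TEF2 and CCW12 were singled out after their values were seen. All 11 histone genes were above 0 and 8 higher without overlap (median 0.70), among them HTA1, an H2A gene, with between 676 and 851 CPM against between 336 and 529 CPM. Of 14 tested Sm and Lsm genes, the RNA-binding rings of spliceosomal and decay complexes, 8 were higher and 0 lower without overlap (median 0.51), while LSM2 was at -0.78. Of 18 genes for small mitochondrial import proteins, 7 were higher without overlap (median 0.41), with TIM23, the channel of the inner membrane, at 0.97 and TOM7 at -0.90. Of 76 tested genes for mitochondrial ribosomal proteins, 11 (14.5%) were higher and 0 lower (median 0.17), with MRP20 at 1.53. Respiratory chain and ATP synthase genes, at 35 tested, had 2 higher (5.71%, below the share of all genes), QCR7 (0.60) and ATP18 (1.01), and a median of 0.17. Their medians after the length line was taken off were 0.17 for histones, -0.07 for Sm and Lsm genes, -0.11 for import proteins, -0.04 for mitochondrial ribosomal proteins and -0.02 for respiratory genes. With the fit on length and GC content together taken off, they were 0.10, 0.0033, -0.13, 0.0047 and -0.05 in the same order.

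Complexes with members of mixed size had members in both directions. In the proteasome, 9 of 33 genes were higher, 8 of them for core particle subunits such as PRE2 (0.96) and the other the small lid gene SEM1 (0.82), and 2 were lower, the large base subunit gene RPN1 (-0.70) and the lid gene RPN5 (-0.54). Among 39 translation factors, 7 were higher, with STM1 (0.79) and HCR1 (0.79) first, and 9 lower, with the initiation factor gene NIP1 (-1.72) and the elongation factor gene YEF3 (-0.94) first. YEF3 had between 5441 and 7337 CPM in the flat and between 9684 and 15008 CPM in the steep libraries. Among 134 ribosome biogenesis genes, 9 (6.72%) were higher and 8 (5.97%) lower, both below the 9.02% and 20.7% of all genes. The higher ones included RRP15 (1.53), FPR3 (1.24) and GAR1 (0.96), and the lower ones UTP10 (-1.77), UTP20 (-1.68) and RRP5 (-1.30), scaffold proteins of the small subunit processome. Nucleoporin genes, of which 33 were tested, had 18 (54.5%) lower and 1 higher without overlap, SEC13 (0.46), which also coats transport vesicles, and a median of -0.53. At a median length of 2235 bp, their median was 0.13 after the length line was taken off, and 0.03 with the fit on length and GC content. The medians of translation factors and ribosome biogenesis genes were -0.11 and -0.14, and 0.07 and 0.05 with TMM.

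Metabolic, chaperone, cell wall and glucose-repressed groups had between 0% and 13.8% of their members higher and between 3.45% and 15.4% lower without overlap, against 9.02% and 20.7% of all genes. Of 20 glycolysis genes, FBA1 (aldolase, 0.65) and GPM1 (phosphoglycerate mutase, 0.81) were higher and both phosphofructokinase genes, PFK1 (-0.58) and PFK2 (-0.9965), lower without overlap. FBA1 had between 13124 and 19618 CPM in the flat and between 8021 and 12866 CPM in the steep libraries. In ergosterol synthesis, ERG2 (0.34) and ERG20 (0.42) were higher and the reductase genes HMG1 (-0.90) and HMG2 (-0.79) and MVD1 (-0.49) lower among 25 genes, with a median of -0.08 (0.12 with TMM). Of 29 chaperone genes, 4 were higher, with HSP10, the co-chaperonin of mitochondria, at 1.2 and CPR1 at 0.58, and LHS1 of the endoplasmic reticulum was lower (-0.75), with a median of -0.03 (0.17 with TMM). Among 26 cell wall mannoprotein genes, CCW12, the most abundant, had between 6170 and 8539 CPM against between 2603 and 4170 CPM, a log2 difference of 1.07, while FLO5, FLO10 and FLO11, long genes for flocculins with repeats, and SCW4 were lower, at between -0.9997 and -0.59. Of 21 tested glucose-repressed genes, 0 were higher and 1, GDB1 (-0.86), lower. Near-identical members of these families, such as TEF1 and TEF2 (-0.25 and 0.24), lose shared reads, and their values are uncertain.

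The later time points held few flat libraries. By the same limit, 1 library at 2 h (replicate 1), 0 at 4 h and 2 at 6 h (replicates 2 and 4) were flat. Relative to the median difference of all genes at that time point, -0.21 at 2 h and -0.23 at 6 h, 432 of the 432 genes higher at 0 h were above it at 2 h and 432 at 6 h, and 988 and 979 of the 993 lower ones were below it. The slope also chose these libraries, so the direction by length was fixed in part. Among genes outside the slope, SCR1 had log2 differences of -3.28 at 2 h and -2.09 at 6 h, whereas RPR1 had -1.06 and 0.33. Of the 23 stable non-coding RNA genes, 22 were below 0 at 2 h and 22 at 6 h, with medians of -1.20 and -1.77, and RP genes had medians of 0.70 and 0.66. Of the slope genes named as extremes at 0 h, PMP1 had -1.32 and -0.86, SNA2 -1.58 and -1.08 and RQC2 1.12 and 0.91. Each comparison at 2 h and 6 h holds 1 and 2 flat libraries.

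Intron reads were a smaller share of the counts in the flat libraries. The share is the gene counts minus the exon counts, divided by the gene counts, over genes with an intron. It compares parts of the same genes, uses none of the genes in the slope and does not depend on the library total, so it was tested. It is not free of the base content that went with the sets above. The base content of introns was not measured, and its part in the share was not tested. That splicing measures differ between the sets was known when the test was chosen. In the 87 RP genes with an intron, the share was 0.742% at the lowest, 1.28% at the median and 2.82% at the highest in the flat libraries, and 3.05%, 4.01% and 6.94% in the steep ones. All 7 flat libraries lay below all 17 steep ones. The means were 1.54% ± 0.779 (SD, n = 7) and 4.30% ± 1.01 (SD, n = 17), a difference of -2.76 points (exact permutation test as above, p = 2.89e-06, the least that 346104 splits allow). In 136 other genes with an intron the means were 1.18% ± 0.420 (SD, n = 7) and 2.48% ± 0.457 (SD, n = 17), a difference of -1.29 points (exact permutation test, p = 1.16e-05), and 6 of 7 flat libraries were below all steep ones. The exception was replicate 21 at 2.02%, with the lowest steep library at 1.76%. At least 17323 intron reads of RP genes and 3476 of the others stood behind the share of each flat library. Replicates 16, 17 and 19, at 0.947%, 0.742% and 0.923% for RP genes, were the lowest, replicate 5 was at 1.28%, and replicates 8, 12 and 21 were at 1.81%, 2.25% and 2.82%.

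**Figure D5:**
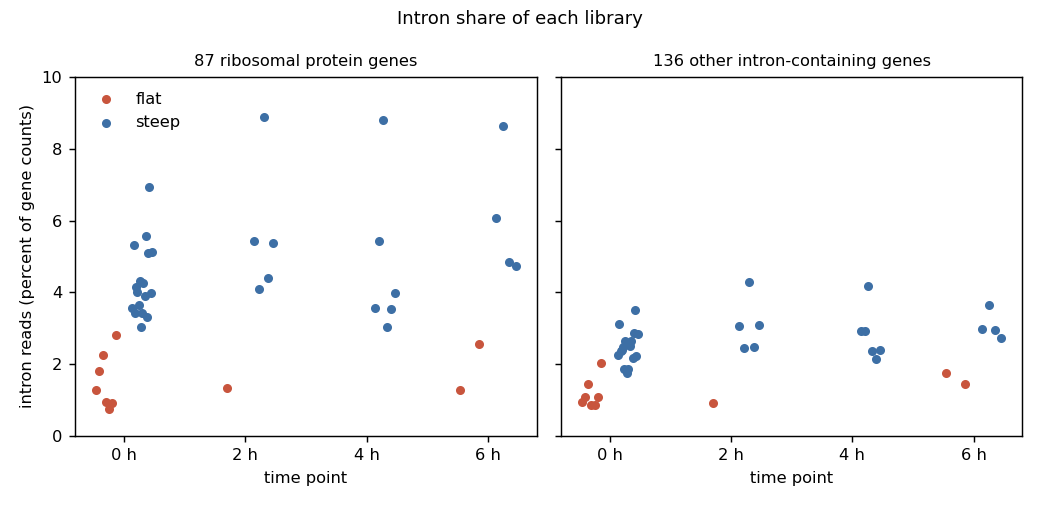
Intron reads as a percent of gene counts (y axis) in each library at 0, 2, 4 and 6 h (x axis), for 87 RP genes with an intron (left) and 136 other genes with an intron (right); red points are flat and blue points steep libraries. For RP genes the 7 flat libraries at 0 h lie between 0.742% and 2.82% and the steep ones between 3.05% and 6.94%, and at 2 h and 6 h the 3 flat libraries lie below all steep ones of their time point.

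The difference was found within each word of the file headers. For RP genes the flat and steep means were 2.01% and 4.57% with 10C, 1.10% and 4.11% with 35C, 0.742% and 4.60% with 30C and 1.81% and 3.98% with Na200, and in each the highest flat library was below the lowest steep one. With the sets permuted only within the words, which was added after the data were seen, the exact permutation p was 9.26e-05 for RP genes and for the others, the smallest that 10800 arrangements can give. At later time points the 1 flat library at 2 h had 1.34% and the 5 steep ones between 4.09% and 8.90%, and the 2 flat libraries at 6 h had 1.28% and 2.55% against between 4.73% and 8.65%. Permuted within these time points, the difference over 3 flat and 9 steep libraries was -4.11 points (exact permutation test, p = 0.0111, the smallest that 90 arrangements can give).

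Gene by gene, the lower intron share was common to all 87 RP genes. Of 223 genes with an intron of at least 25 bp, 72.2% had a lower and 3 genes (1.35%) a higher share in the flat libraries at an adjusted p under 0.05 (two-sided exact permutation tests with Benjamini-Hochberg adjustment over the 223 genes), and 59 passed in neither direction. Of the 136 other genes, 74 were among the lower ones. By intron length, 58 of 113 genes with an intron under 200 bp, 49 of 53 from 200 to under 400 bp and 54 of 57 with 400 bp or more were lower. Short introns hold fewer reads, and the median ratio of the flat to the steep share was 0.41, 0.41 and 0.35 in the 3 classes. Of the genes called lower, all were lower in the flat library at 2 h and 160 at 6 h, where 219 and 210 of all 223 were lower. By the rule of no overlap used for levels, 43 of the 223 genes had a lower share in the flat libraries at 0 h and 0 a higher one.

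The 5 genes with the lowest adjusted p and the largest difference were RPL36A, RPL22B, RPS13, RPS30A and RPS30B, each at an adjusted p of 2.22e-05 by the exact permutation test. RPL22B (YFL034C-A), with its intron between 64600 and 64920 on the minus strand of chromosome VI, had an intron share of 7.92%, 10.97% and 19.98% (lowest, median, highest) in the flat and 21.9%, 25.6% and 28.5% in the steep libraries. Its level in CPM was 1 of the 6 RP levels with a log2 difference under 0. RPS13 (YDR064W), with its intron between 579479 and 580017 on the plus strand of chromosome IV, had 2.45%, 4.398% and 11.5% against 14.2%, 17.6% and 21.99%, on a median of 1413 and 3003 intron reads. Their intron ends are printed to show the signals that the spliceosome reads, with the first 6 bases, the branch point sequence TACTAAC and the terminal AG in capitals (RefSeq R64, 5′ to 3′ of the gene).
RPL22B, intron start: GTACGTtaattttcgttcctatgtcacaat
RPL22B, intron end: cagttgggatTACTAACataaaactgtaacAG
RPS13, intron start: GTATGTttattaacaccatagcgagatatt
RPS13, intron end: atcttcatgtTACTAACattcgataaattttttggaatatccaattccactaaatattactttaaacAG
The RPS13 intron opens with the usual yeast GTATGT and that of RPL22B with GTACGT. The branch point sequence ends 15 bases before the end of the RPL22B intron and 52 bases before that of RPS13. RPS30A and RPS30B, a pair of paralogs, had median shares of 0.883% and 0.736% in the flat against 8.65% and 8.26% in the steep libraries. RPL36A had 4.74% against 18.4%, and another annotated gene overlaps its intron.

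Outside the RP genes and outside the naming rule, YRA1 and ACT1 were singled out after their values were seen. YRA1, an mRNA export factor whose intron is known for slow splicing, had an intron share of 3.03%, 8.38% and 19.75% in the flat and 19.5%, 24.7% and 34.1% in the steep libraries, so that 1 flat library reached the steep range (adjusted p = 3.48e-05, exact permutation test). ACT1, the actin gene, had 0.0588%, 0.178% and 0.581% against 0.703%, 1.01% and 1.61%, without overlap. The 3 genes with a higher share were ERD2, the receptor for proteins of the endoplasmic reticulum (0.93 points, adjusted p = 0.00865, exact permutation test), YBR090C (4.14 points) and snR17a (0.72 points), of which ERD2 and snR17a rest on a median of 22 and 8 intron reads in the flat libraries. In the flat library at 2 h, ERD2 and snR17a differed by -0.43 and -0.52 points from the steep mean, in the other direction, and another gene overlaps the snR17a intron.

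Within a set, slope and intron share were not shown to go together. Over the 7 flat libraries, Pearson's r of slope and RP intron share was 0.64 and Spearman's rho 0.68 (exact permutation p = 0.113 and 0.11), and for the other intron genes r was 0.69 and rho 0.79 (exact permutation p = 0.0897 and 0.048). Over the 17 steep libraries r was 0.31 and 0.39 and rho 0.41 and 0.41 (permutation test, p between 0.105 and 0.223). Adjusted over the 4 relations by Benjamini-Hochberg, p was between 0.155 and 0.223 for r and 0.11 for each rho. Without the 2 flat libraries farthest from the median slope, r was 0.97 and 0.98 over 5 libraries, and without the 2 such steep libraries 0.28 and 0.35. The relation of intron share to the GC coefficient was not tested. Among the flat libraries, replicates 16, 17 and 19 had the highest GC coefficients, 1.97 to 1.99, and the lowest RP intron shares, 0.742% to 0.947%. Replicates 5, 8, 12 and 21 followed, with coefficients of 1.64, 1.33, 1.21 and 0.72 and shares of 1.28%, 1.81%, 2.25% and 2.82%.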

How the data were processed

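RNA from the 42 libraries was selected for polyA and made into stranded libraries with the TruSeq kit. The authors' notes name STAR and StringTie and the R64 genome. The deposited files hold raw counts per gene, 1 file over whole genes and 1 over exons only, written by featureCounts 2.0.3 on Ensembl release 106 per the file headers. Counting used the strand, and multi-mapping reads and reads over several genes were not counted. According to the methods, ComBat-seq corrected batches for the efficiency of polyA selection. The counts were then made anew, and the headers name featureCounts only.

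Gene names and sequences came from RefSeq R64, with 6047 identifiers matched by locus tag and 120 RNA genes by name. CPM used the library total, the scaling in the study's methods. Log2 differences and standard errors came from edgeR 4.0.16 quasi-likelihood fits (R 4.3.3), used without p-values. DESeq2 1.42.0 served as an alternative. Differences at 2 h, at 6 h and by header word used log2(CPM + 0.5). Intron reads were gene minus exon counts. Exact permutation tests were two-sided. Their p-values are the share of arrangements of these libraries with a difference or correlation at least as large in size. They speak only for these libraries, which the methods call biological replicates, and the sets are not conditions of the study. The scripts were tested on simulated data. Genes named were the 10 largest differences each way in the slope and 5 outside it, among genes of at least 10 CPM without overlap, the 3 shortest and longest, the 3 most abundant of each list and 5 intron shares; others are said to have been singled out. The sets, lists and tests were chosen with earlier results of these data known.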

Additional observations from a re-analysis of the deposited data

Results flagged for a closer look

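In the 7 flat libraries, 113 levels and shares were compared for 1 library far from the other 6 (Dixon's ratio of gap to range above its 95% critical value), which chance gives in about 1 of 20. The measures are not independent and many are of genes named for their values in these data, so no excess over that rate can be read from them. Such a library was found for 14 measures. Replicate 21 was apart in 9 of them, all levels in CPM: RRP15 at 469 (others 295 to 365), NUP188 at 184 (others 67.8 to 117), HTB1 at 770.5 (others 489 to 604), TEF2 at 2570 (others 3572 to 4134), IRT1 at 32.1 (others 18.9 to 22.4), PMP1 at 360.8 (others 131 to 176), TOM7 at 62.8 (others 12.4 to 29.4), SNA2 at 18.5 (others 8.22 to 12.2) and YCR024C-B, an open reading frame just downstream of PMP1, at 488 (others 74.0 to 135.8). PMP1, TOM7, SNA2 and YCR024C-B are among the genes farthest below the length line, and replicate 21 also had the lowest GC coefficient and the highest slope of the flat set.

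Replicate 5 was apart in SCR1 at 885 CPM (others 76.2 to 157) and snR17a at 166 CPM (others 29.5 to 53.8), both RNAs without a stable polyA tail. Replicate 17 was apart in RPL31B at 1237 CPM (others 965 to 1060) and HTA1 at 851 CPM (others 676 to 732), and replicate 8 in MNP1 at 160 CPM (others 128 to 140).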

How the results depend on the processing

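The same 7 libraries lay below the largest gap with exon counts, with other count filters, with all nuclear protein-coding genes and with Spearman correlation in place of the slope. Genes higher without overlap numbered 432, 712 with TMM and 718 with DESeq2 size factors, while the lower ones went from 993 to 715 and 702. Genes higher by 2-fold or more numbered 51, 152 with TMM, 158 with DESeq2 and 79 with a minimum of 1 count, and lower ones 212 with TMM, 209 with DESeq2 and 611 with a minimum of 1 count. With TMM the medians of translation factors, ribosome biogenesis, ergosterol synthesis and chaperones changed sign, to 0.0728, 0.0464, 0.12 and 0.17. Leaving out each library in turn gave 432 to 536 higher and 994 to 1336 lower genes without overlap, 43 to 57 and 343 to 554 genes at 2-fold or more, RP intron shares of -2.97 to -2.59 points, -1.43 to -1.23 for the other genes and -2.53 to -2.20 for both, 143 to 164 genes with a lower and 2 to 3 with a higher intron share, and totals higher by 6742673 to 9279731 counts. Intron shares as means over genes or as splice ratios, and log2 totals, kept direction and side of the threshold. No paired analysis was possible from the labels because no 2 libraries at 0 h share a replicate number in them. Both sets come from 1 time point, and pairing by other information was not tested. Genes under 75 counts in any library were outside the tests, which leaves most snoRNAs out, and single flat libraries rest on few intron reads for short introns.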
